A study of Mus musculus with 7 samples.

Results

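Cyclins are the regulatory subunits that switch on cyclin-dependent kinases (CDKs) and so drive a cell through its division cycle. D-type cyclins (Ccnd1, Ccnd2, Ccnd3) pair with Cdk4 and Cdk6 and are the members whose transcription answers to growth factor signals. E-type cyclins (Ccne1, Ccne2) pair with Cdk2 at entry into S phase, cyclin A (Ccna2) acts through S phase, and B-type cyclins (Ccnb1, Ccnb2) pair with Cdk1 at mitosis. Cdkn1b encodes Kip1, a protein that binds and inhibits cyclin-CDK complexes. Mouse embryonic stem cells are known for a short gap phase before S phase, for abundant cyclin E and for little D-type cyclin.

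The genes described here are these 8 cyclins and Cdkn1b, chosen by symbol. Of the 45101 probe sets of the array, 21 carried the symbol of 1 of 8 of these 9 genes in the platform annotation, and no probe set with several symbols included any of them. Ccnb1, on chromosome 13, had no probe set under its symbol in that annotation and was not analysed here. Ccnd2 had 7 probe sets, Ccnd1 and Ccnd3 had 3 each, Ccne1, Ccna2 and Cdkn1b had 2 each, and Ccne2 and Ccnb2 had 1 each. Of the 21, 17 had a mean signal high enough to be tested, and each of the 8 genes kept at least 1. Probe sets of the same gene read parts of the same transcripts and are not independent of one another.

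The cells were D3, an established mouse embryonic stem cell line. There were 5 libraries (KO1 to KO5) of D3 cells that lacked calreticulin, which binds calcium and helps proteins fold in the endoplasmic reticulum, and 2 libraries (WT1 and WT2) of wild type D3 cells. No treatment, time course or other allele is named for either group. Each library was 1 RNA pool from replicate cultures on its own Affymetrix mouse expression array. Whether 1 knockout clone or several were used is not given in the labels. The p-values therefore measure the spread between these libraries. A bulk signal also cannot tell fewer cycling cells from less of a transcript in each cell.

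Values are MAS5 signals of single probe sets, on a linear scale that the authors had set to a common mean on every array. A difference is knockout minus wild type on the log2(signal + 20.2) scale, from limma fitted on 27022 probe sets, and understates the change of dim probe sets. A probe set was called at a Benjamini-Hochberg adjusted p under 0.05 over all of them. Brightness depends on the probes, so signals of different genes were not compared.

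The targeted gene followed the labels. Calr, on chromosome 8, had a signal of 912 ± 205 in knockout libraries (SD, n = 5), against 11650 ± 1146 in wild type libraries (SD, n = 2), with its brightest probe set (log2 difference -3.68, SE 0.30, limma adjusted p = 0.00595). All 10 stem cell markers were above the signal filter, and their summed signal was 80380 to 112540 in knockout libraries, against 83531 and 98323 in wild type libraries. The sum hides single markers, which went both ways in KO2 and KO3. Pou5f1 read 4891 and 4687 in these 2, against 8770 to 11726 elsewhere. Nanog, Esrrb and Utf1 were also lowest there, while Tdgf1 and Fgf4 were highest there. KO2 and KO3 resembled each other more than any other library. They correlated at 0.984 with each other across probe sets and at 0.843 to 0.902 with the remaining libraries. For Lys, a bacterial RNA spiked into each sample, the 3' probe set read 15165 and 13155 in KO2 and KO3, against 6749 to 8508 elsewhere. Ratios of 3' to 5' probe sets, which depend on RNA quality, also differed, and their part in the results was not tested. For Gapdh the log2 ratio was 1.32 in KO4 and 0.77 in WT2, against -0.31 to 0.08 elsewhere. For Actb it was 0.79 and 0.89 in KO2 and KO3, against 1.46 to 2.08 elsewhere. The summed signal of 11 fibroblast or feeder markers was 4759 and 4456 in these 2 libraries, 845 to 1259 in the other 3 knockout libraries, and 1598 and 1312 in wild type libraries. Dcn (552 and 555) and Col1a2 (1519 and 1443), both defining fibroblast genes, were higher in these 2 than in any other library. Not every marker of the list was. Twist2 was lowest in KO2 and KO3 (60.5 and 66.6), Thy1 (310 and 292) lay below KO4 (403) and WT1 (405), and Lum and Fap were under the signal filter. Dcn was at 13.4 to 14.5 in the other knockout libraries and at 55.6 and 27.5 in wild type libraries. Primitive or visceral endoderm markers summed to 858 to 1849 in knockout libraries, and to 1578 and 2529 in wild type libraries. Results are therefore also given without knockout libraries 2 and 3, and the part of the fibroblast signal in them was not tested.

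None of the 17 tested probe sets passed the threshold, where 0.0296% of all tested probe sets did (8 of 27022). At an unadjusted limma p under 0.05 there were 7, all lower in the knockout libraries, namely the 5 of Ccnd2 and 2 of Ccnd1. Over all probe sets 2.61% were lower at that level. Every knockout signal lay below both wild type signals at 7 of the 17, beside 5.85% of all tested probe sets, and above both at 1, beside 7.8%. The 7 were the 5 of Ccnd2, 1 of Ccnd1 and 1 of Ccna2, and the 1 was that of Cdkn1b. One Ccnd2 probe set, 1448229_s_at, passed the signal filter only through its wild type level; of the other 16, 6 lay below both wild type signals and 6 were lower at an unadjusted limma p under 0.05. The median difference over the 17 was -0.56, against 0.07 over all tested probe sets, and 13 of the 17 were negative, against 44.1% of all. Since 8 of the 17 belong to Ccnd1 and Ccnd2, these summaries weigh those 2 genes most. Without knockout libraries 2 and 3, 8 lay below both wild type signals, beside 8.89% of all tested probe sets, and 1 above, beside 11.4%, and again none was called.

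Promoter sequence is shown for a pair of members that did not share a pattern: Cdkn1b, the member whose knockout signals were all higher, and Ccnb2, a mitotic cyclin whose groups overlapped. The RefSeq windows (GRCm38.p6, from 250 bases before to 50 bases after the gene's start) covered 5 of the 9 genes in 6 windows, 2 of them for Ccnd3. Capitals mark the letters searched for, CCAAT, the box bound by the factor NF-Y, and TTTGAA, the cell cycle genes homology region bound by the MuvB complex. The Cdkn1b stretch is chr6:134920231-134920400 on the plus strand, bases -170 to -1, and the Ccnb2 stretch is chr9:70421543-70421654 on the minus strand, bases -100 to 12.
Cdkn1b: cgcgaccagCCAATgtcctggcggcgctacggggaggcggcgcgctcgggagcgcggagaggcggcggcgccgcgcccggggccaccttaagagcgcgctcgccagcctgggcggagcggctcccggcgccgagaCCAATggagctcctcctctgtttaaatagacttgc
Ccnb2: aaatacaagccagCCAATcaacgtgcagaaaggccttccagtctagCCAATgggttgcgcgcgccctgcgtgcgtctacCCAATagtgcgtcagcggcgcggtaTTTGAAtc
The full Ccnb2 window held 3 CCAAT boxes, at -87, -54 and -21, and TTTGAA at -167 and just past the start, at 5. The Cdkn1b window held CCAAT at -161 and -35 on its own strand, with another on the opposite strand past the start at 46. Searched on both strands, CCAAT was in 4 of the 6 windows and in 37.4% of all 32851 windows of this length, 3 or more times in 3.37% of them, and TTTGAA was in 17.9%. The other letters searched, TTCGAA (1.56% of windows) and the E2F site forms TTTCCCGC (1.07%), TTTGGCGC (0.514%), TTTCGCGC (0.323%) and TTTGCCGC (0.441%), were in none of the 6 windows.

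Ccnd2, on chromosome 6, had the largest difference among the members. Every knockout signal lay below both wild type signals at all 5 of its tested probe sets, beside 5.85% of all tested probe sets. Of these 5, 1448229_s_at passed the signal filter only through its wild type level. The brightest Ccnd2 probe set (1416122_at) read 275, 427, 456, 267 and 268 in KO1 to KO5, against 938 and 637 in WT1 and WT2. The mean was 339 ± 94.3 in knockout libraries (SD, n = 5) and 788 ± 213 in wild type libraries (SD, n = 2), a share of 43.0%. The highest knockout signals, in KO2 and KO3, still lay below the lower wild type signal. The difference was -1.18 (SE 0.32, 95% interval -1.90 to -0.46, limma adjusted p = 0.575).

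The probe set 1434745_at of Ccnd2 had the largest difference on the log2(signal + 20.2) scale, and its knockout signals were spread widely. It read 130, 439, 460, 203 and 228 in KO1 to KO5, against 680 and 665 in WT1 and WT2. KO1 was the lowest, and KO2 and KO3 were the nearest to the wild type signals. The difference was -1.29 (SE 0.45, limma adjusted p = 0.575).

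The probe set 1430127_a_at read 183, 225, 257, 114 and 208 in KO1 to KO5, against 548 and 394 in WT1 and WT2, a difference of -1.20 (SE 0.32, limma adjusted p = 0.575). The other 2 were dimmer. The probe set 1448229_s_at averaged 49.6 ± 11.8 in knockout libraries and 133 ± 47.9 in wild type libraries, a difference of -1.12, and 1455956_x_at averaged 94.9 ± 30.1 in knockout libraries and 195 ± 41.7 in wild type libraries, a difference of -0.93 (limma adjusted p = 0.575 for each). The probe set 1448229_s_at stood at percentile 40.3 of mean signal, just above the filter at 40, and would not have been tested at its knockout level alone. Suffixes _a, _s and _x mark probe sets whose probes also match other transcripts, in the case of _x possibly of unrelated genes. Across the 5, the knockout mean was 37.3% to 48.7% of the wild type mean. The 2 remaining Ccnd2 probe sets lay between 0.6 and 11.5 in every library, were not tested, and overlapped between the groups.

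Leaving out knockout libraries 2 and 3 moved the Ccnd2 differences further from 0, to between -1.77 and -1.12. With 1434745_at the difference was then -1.77 (95% interval -2.45 to -1.10, limma adjusted p = 0.259), and with 1416122_at it was -1.45 (limma adjusted p = 0.418). In both probe sets KO2 and KO3 were the 2 highest of the knockout group, while in 1448229_s_at KO1 was the highest, at 62.5. The part in this of the fibroblast signal or of other differences of KO2 and KO3 was not tested. The call was missed with both 1434745_at and 1416122_at.

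Ccnd1, on chromosome 7, was lower in the knockout group with all 3 of its probe sets, and the groups were separate with 1 of them. That probe set, 1448698_at, read 998, 1023, 942, 1642 and 994 in KO1 to KO5, against 2309 and 2092 in WT1 and WT2. KO4 lay above the other 4 knockout libraries and below both wild type libraries. It averaged 1120 ± 294 in knockout libraries (SD, n = 5) and 2201 ± 153 in wild type libraries (SD, n = 2), a share of 50.9%, and the fitted difference was -0.99 (SE 0.30, 95% interval -1.65 to -0.33, limma adjusted p = 0.575).

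The brightest Ccnd1 probe set, 1417420_at, read 1745, 1641, 1754, 3034 and 1971 in KO1 to KO5, against 4917 and 2546 in WT1 and WT2. KO4 was again the highest of its group and here exceeded WT2. The difference was -0.83 (SE 0.35, limma adjusted p = 0.575), and it was -0.36 without WT1 and -1.31 without WT2. The dimmest, 1417419_at, read 415, 248, 169, 492 and 239 in KO1 to KO5, against 1051 and 297 in WT1 and WT2, and its difference of -0.90 (limma adjusted p = 0.579) became -0.02 without WT1. The distance between the groups in these 2 probe sets thus varied with the wild type library used, while that of 1448698_at stayed between -1.14 and -0.92 whichever single library was left out. Without knockout libraries 2 and 3, each Ccnd1 difference was smaller, at -0.89 for 1448698_at, -0.69 for 1417420_at and -0.59 for 1417419_at. The 95% interval of 1417420_at then ran from -1.49 to 0.11.

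Ccnd3, on chromosome 17, showed smaller differences, and its 2 tested probe sets disagreed in sign. Its brightest probe set, 1415907_at, read 2060, 1788, 1657, 1385 and 1826 in KO1 to KO5, against 2130 and 1894 in WT1 and WT2. The ranges overlapped, and the difference was -0.21 (95% interval -0.80 to 0.37, limma adjusted p = 0.759). A second, dimmer probe set (1444323_at) pointed the other way, at 207 ± 41.9 in knockout libraries and 163 ± 45.9 in wild type libraries (0.32, limma adjusted p = 0.672). The third lay between 10.1 and 40.2 in every library and was not tested.

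**Figure D1:**
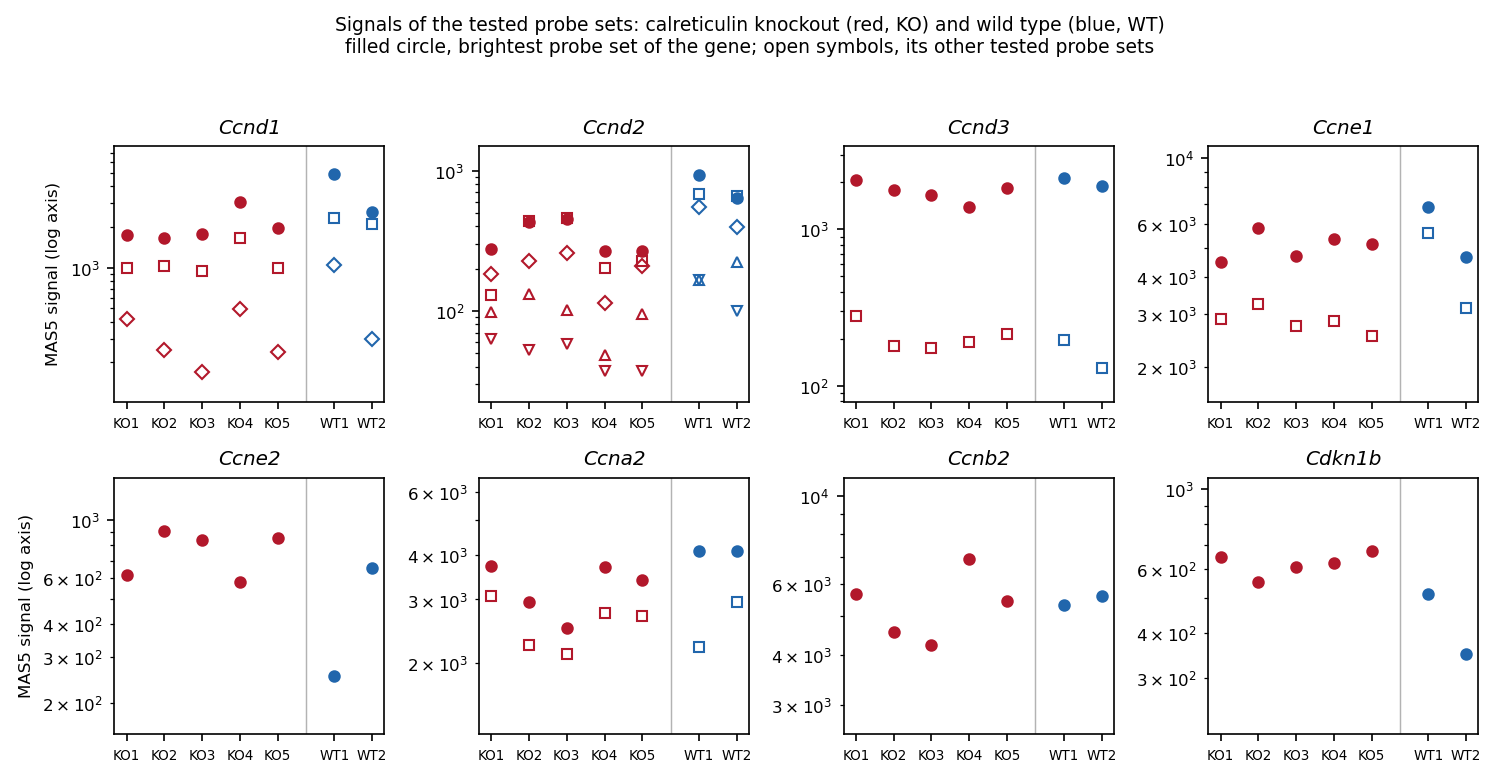
MAS5 signals (log axis) of the 17 tested probe sets of 8 genes in the 5 knockout (KO) and 2 wild type (WT) libraries; each point is 1 library, filled circles are the probe set of the gene with the highest mean log2 signal and open symbols its other tested probe sets. For Ccnd2 all red points of a probe set lie below both blue points of that probe set, for Cdkn1b all lie above, and for Ccne2 and the brightest Ccnd1 probe set the 2 wild type libraries lie far apart.

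The E-type cyclins did not separate the groups, and the wild type libraries lay far apart with Ccne2 and with 1416492_at of Ccne1. Ccne1, on chromosome 7, read 2904, 3259, 2739, 2859 and 2539 in KO1 to KO5 with 1416492_at, against 5602 and 3160 in WT1 and WT2. WT2 lay within the knockout range and WT1 far above it. The difference was -0.56 (SE 0.28, 95% interval -1.18 to 0.06, limma adjusted p = 0.575), and without WT1 it was -0.15. The brighter 1441910_x_at averaged 5111 ± 538 in knockout libraries (n = 5) and 5758 ± 1549 in wild type libraries (n = 2), a difference of -0.15 (limma adjusted p = 0.818).

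Ccne2, on chromosome 4, had the largest positive difference of the 17. It read 617, 910, 838, 581 and 858 in KO1 to KO5, against 253 and 654 in WT1 and WT2. Again WT2 lay within the knockout range, and WT1 was the only library that stood clear. The difference was 0.84 (SE 0.38, 95% interval -0.01 to 1.69, limma adjusted p = 0.575). It was 0.19 without WT1 and 1.49 without WT2, so its size turned on which wild type library was used.

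The cyclins of S phase and mitosis showed smaller differences than Ccnd2. Ccna2, on chromosome 3, read 3717, 2942, 2491, 3690 and 3402 in KO1 to KO5 with its brighter probe set, against 4104 and 4100 in WT1 and WT2. The groups did not overlap, but the knockout mean was still 79.2% of the wild type mean (difference -0.35, 95% interval -0.92 to 0.21, limma adjusted p = 0.623). KO2 and KO3 held the 2 lowest signals, and without them the difference was -0.19. The second Ccna2 probe set averaged 2574 ± 393 in knockout libraries and 2576 ± 525 in wild type libraries, a difference of 0.00060 (limma adjusted p = 0.999).

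Ccnb2, on chromosome 9, read 5670, 4562, 4221, 6933 and 5438 in KO1 to KO5, against 5325 and 5605 in WT1 and WT2. The wild type signals lay inside the knockout range. The difference was -0.05 (95% interval -0.61 to 0.52, limma adjusted p = 0.952). KO2 and KO3 were again the 2 lowest, and without them the difference was 0.13 (95% interval -0.34 to 0.60).

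Cdkn1b, on chromosome 6, was the one member with higher signals in every knockout library, as were 7.8% of all tested probe sets. Its tested probe set, 1434045_at, read 649, 552, 609, 623 and 672 in KO1 to KO5, against 512 and 351 in WT1 and WT2. The knockout libraries lay close together, at 621 ± 45.7 (SD, n = 5), and the wild type libraries at 431 ± 113 (SD, n = 2), so that the knockout mean was 144% of that in wild type libraries. The difference was 0.53 (SE 0.26, 95% interval -0.06 to 1.11, limma adjusted p = 0.575). It was 0.59 without knockout libraries 2 and 3, and 0.78 and 0.27 without WT1 and WT2. The second Cdkn1b probe set ran from 4.0 to 53.6 in knockout libraries while the wild type libraries had 40.6 and 11.7, and it was not tested.

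**Figure D2:**
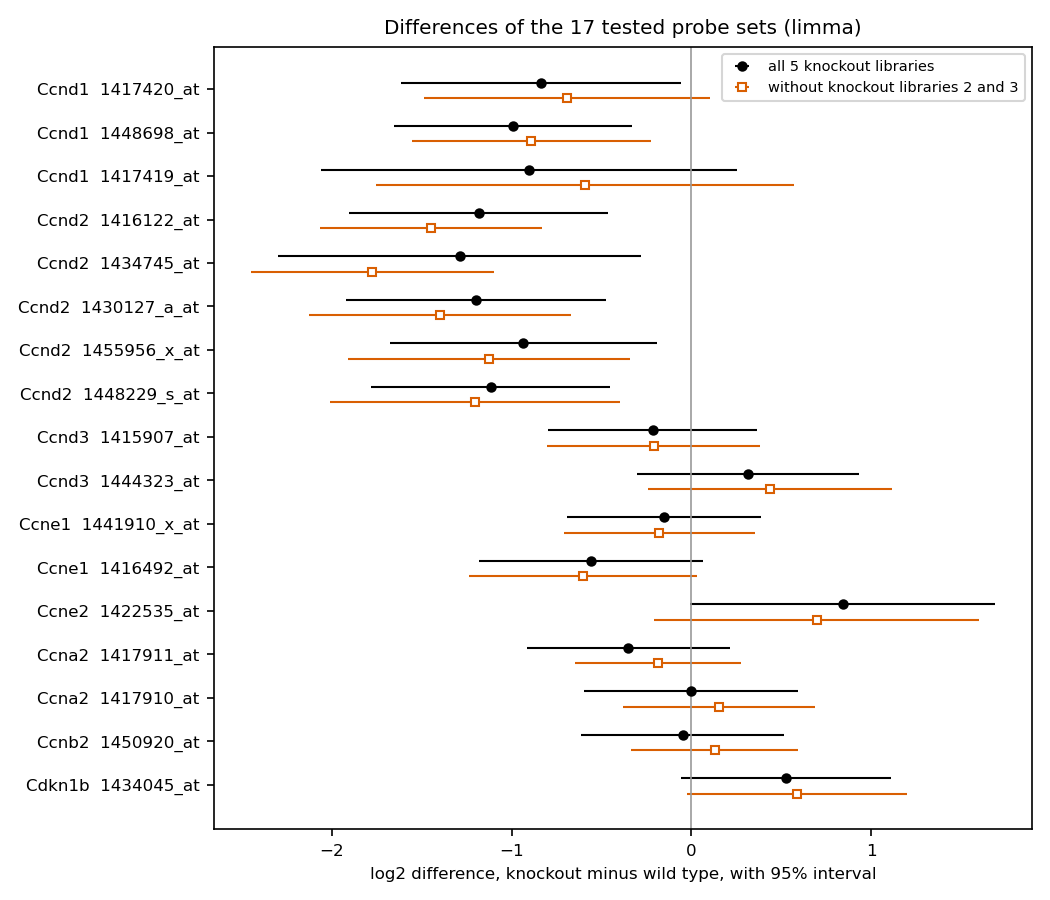
Log2 difference, knockout minus wild type, with its 95% interval from limma for each of the 17 tested probe sets, with all 5 knockout libraries (black circles) and without knockout libraries 2 and 3 (orange squares). The 5 Ccnd2 intervals lie below 0 in both fits, around differences of -1.29 to -0.93 with all libraries and of -1.77 to -1.12 without the 2, while no probe set passed the adjusted threshold. Of the 5 Ccnd2 probe sets, 1448229_s_at passed the signal filter only through its wild type level.

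The members also differed in how much they varied over the 7 libraries. With 1 probe set per gene (13120 genes), the standard deviation of log2 signal was 0.67 for Ccnd2, 0.61 for Ccne2 and 0.57 for Ccnd1, at percentiles 84.2, 78.7 and 75.2 among genes. It was 0.21 for Ccnd3, 0.21 for Ccne1 and 0.23 for Ccnb2, at percentiles 8.89, 10.4 and 13.2. The Ccne1 value is that of its brighter probe set; the other, 1416492_at, had 0.38. For the 3 most variable members, likeness was measured as the root mean square distance between log2 profiles centred on their mean over the 7 libraries. This describes the profile in these libraries only, which share their processing and the 2 libraries that stand apart.

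Mest, an imprinted gene that also lies on chromosome 6, had the profile nearest to that of Ccnd2, at a distance of 0.11. Its signals were 2351, 3931, 3624, 2053 and 2515 in KO1 to KO5, against 8597 and 5526 in WT1 and WT2, with a difference of -1.29 (limma adjusted p = 0.589 over genes). The next were Akp3, an alkaline phosphatase gene (0.20), and Dusp4, which encodes a phosphatase of MAP kinases (0.21). Akp3 was dim and close to the signal filter, at 39.8 to 74.9 in knockout libraries, against 138 and 87.9 in WT1 and WT2. Nearest to Ccne2 were Zfp955a (0.08), a zinc finger gene, Adamts9 (0.10), a secreted protease gene, and Epc2 (0.10). Each of these 3 was lowest in WT1, as Ccne2 was. Nearest to Ccnd1, by its brightest probe set 1417420_at, were Dnd1 (0.04), an RNA-binding protein gene of germ cells, Ilk (0.11), which encodes integrin-linked kinase, and Plscr3 (0.12). All 3 were highest in WT1, as that probe set was. The Ccnd1 probe set 1448698_at instead read 2309 and 2092 in WT1 and WT2. Genes chosen for likeness share such extremes through the choice itself.

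**Figure D3:**
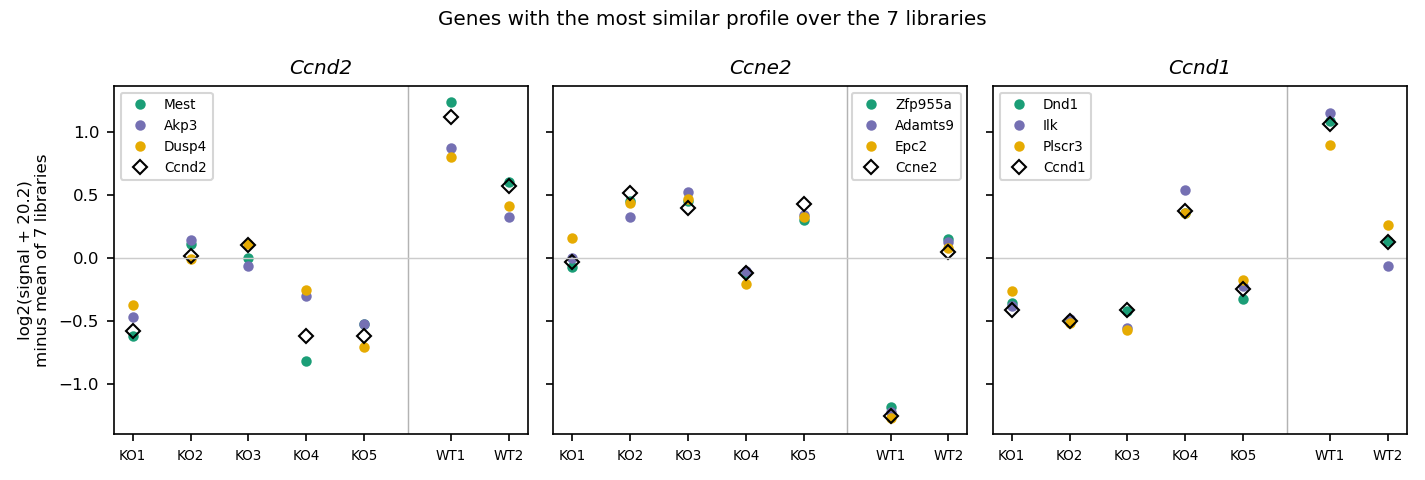
Profiles of Ccnd2, Ccne2 and Ccnd1 (open diamonds) and of the 3 genes nearest to each (coloured circles) over the 5 knockout (KO) and 2 wild type (WT) libraries, as log2(signal + 20.2) minus the mean over the 7 libraries. Mest follows Ccnd2 at a distance of 0.11, and the panels of Ccne2 and Ccnd1 show WT1 as the library farthest from the rest.

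The wider cell cycle machinery was taken as 6 lists with 102 genes, of which 99 were tested. None was called, where 0.0152% of all genes were, and 6 had an unadjusted limma p under 0.05, beside 8.06% of all genes. Of the 99, 49 had a positive and 50 a negative difference, with a median of -0.02, against -0.0041 over all genes. All knockout signals lay below both wild type signals at 8, beside 7.44% of genes, and above both at 3, beside 6.41%.

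Among the other cyclins, 10 of 14 tested genes were positive and 4 negative, with a median of 0.31. In all 10 positive genes but Ccnt1, WT1 was the lowest library. In all 10 but Ccny, WT2 lay within or above the knockout range. The 2 brightest, Ccng1 (0.48) and Ccni (-0.05), overlapped between the groups. Ccng1 read 8395 to 9312 in knockout libraries, against 4070 in WT1 and 9578 in WT2. Ccno, a cyclin family gene known from multiciliated cells, averaged 80.2 ± 56.6 in knockout libraries and 238 ± 15.3 in wild type libraries (-1.57, limma adjusted p = 0.589), and was lowest in KO2 and KO3 (26.1 and 26.7). Ccnk, the cyclin partner of the transcriptional kinases Cdk12 and Cdk13, averaged 471 ± 170 in knockout libraries and 1065 ± 55.3 in wild type libraries (-1.22, adjusted p = 0.589). Ccny, a membrane-associated cyclin, was higher in every knockout library (0.39, limma adjusted p = 0.608), but only narrowly. Its lowest knockout signal was 1046, in KO4, against 709 in WT1 and 1041 in WT2. Without knockout libraries 2 and 3 the Ccno and Ccnk differences were -0.97 and -0.83.

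The kinases that these cyclins serve were not called either. Of 13 kinases and kinase regulators, 4 were positive and 9 negative (median -0.13), and without knockout libraries 2 and 3 the median was 0.09. Cdc25a, a phosphatase that activates Cdk2, was the only one whose groups were separate, at 1591 ± 397 in knockout libraries and 2437 ± 337 in wild type libraries (-0.64, limma adjusted p = 0.589). The brightest, Cks1b and Cks2, small subunits of CDK complexes, stood at -0.10 and -0.15. Of 7 other CDK inhibitors, 5 were positive and 2 negative (median 0.11, and 0.38 without knockout libraries 2 and 3). Cdkn2a was higher in every knockout library, at 123 ± 26.0 against 75.3 ± 4.31 in wild type libraries (0.57, limma adjusted p = 0.589), and the bright members Cdkn1a and Cdkn1c, relatives of Cdkn1b, stood at -0.23 and 0.53 with overlapping groups.

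Pocket proteins, E2F and MuvB factors, which hold back or drive transcription of cyclin genes, had 11 positive and 8 negative of 19 (median 0.07). Lin9, a MuvB subunit, averaged 664 ± 200 in knockout libraries and 302 ± 98.9 in wild type libraries (1.08, limma adjusted p = 0.589). Lin52, another MuvB subunit, stood at -0.91 and E2f6, a repressive E2F, at -0.80 (adjusted p = 0.589 for each), and all 3 had separate groups. Lin52 was lowest in KO2 and KO3 (39.1 and 91.1), and its difference was -0.45 without them. The bright members Tfdp1 and Mybl2 stood at -0.21 and -0.20.

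Ubiquitin ligase genes that mark cyclins and Cdkn1b for destruction had 10 positive and 15 negative of 25 (median -0.19, and -0.05 without knockout libraries 2 and 3). Cdc20, the mitotic activator of the anaphase-promoting complex, averaged 11390 ± 1418 in knockout libraries and 14400 ± 1353 in wild type libraries (-0.34, limma adjusted p = 0.591), and Anapc5, a subunit of that complex, stood at -0.33, both with separate groups. Mitotic kinases and spindle genes had 9 positive and 12 negative of 21 (median -0.06, and 0.15 without the 2 libraries). Birc5, which encodes survivin, averaged 4542 ± 1939 in knockout libraries and 7578 ± 1066 in wild type libraries (-0.85, limma adjusted p = 0.589), with its lowest signals in KO2 and KO3, and stood at -0.35 without them. The bright Pttg1 and Top2a stood at -0.38 and -0.12.

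**Figure D4:**
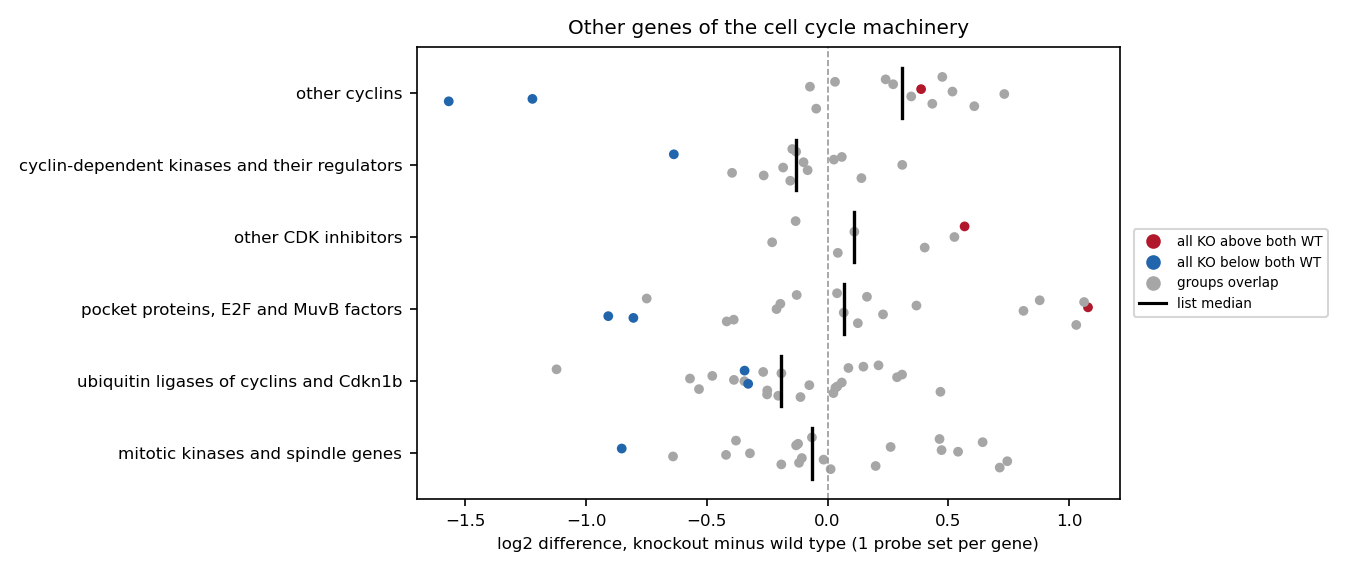
Log2 difference, knockout minus wild type, of the 99 tested genes in 6 lists of the cell cycle machinery, 1 probe set per gene; bars are list medians, red and blue mark genes with every knockout signal above or below both wild type signals, and grey marks overlap. The list medians lie between -0.19 and 0.31, and no gene passed the adjusted threshold.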

How the data were processed

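Per the labels, total RNA was labelled with biotin and hybridised to Affymetrix arrays, 1 per library, and samples were grouped and numbered by title. The deposited values are linear intensities. The submitters' processing notes name MAS5, with its version not given in the sources used here. On each array the mean, trimmed by 2% at either end, was 500.0, so the arrays had been scaled before deposit. There were no detection calls. The number of arrays limits the precision.

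From these, log2(signal + 20.2) was computed, 20.2 being the 20th percentile of all values. After 64 control probe sets were set aside, 27022 with a mean above the 40th percentile were tested with limma 3.58.1 in R 4.3.3 (lmFit, eBayes with trend, two-sided), without covariates. For lists, the brightest probe set stood for its gene. Symbols were updated by identifier through the RefSeq table of GRCm38.p6 (34754 probe sets matched); the array files name no build. The fit was tested on simulated data with 5 knockout and 2 wild type arrays. Simulated log2 changes of 1, 2, 3 and 4 (50 probe sets each) were called in 4%, 60%, 82% and 98% of cases. A missed call therefore does not show that a gene was unchanged.

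The members and lists were chosen with earlier results of these data known. All members and Calr were named; from each list the up to 2 largest rises and falls with separate groups and the 2 brightest genes were named, and for likeness the 3 nearest genes of the 3 most variable members. Alternatives covered normalization, filter, pseudocount, variance model, array weights, the replicate number as a block, and libraries left out. Figures used matplotlib 3.10.9.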

Additional observations from a re-analysis of the deposited data

Results flagged for a closer look

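Among the 5 knockout libraries, 1 of the 17 tested probe sets had a library far from the others. In 1448698_at of Ccnd1, KO4 read 1642, against 942 to 1023 in the other 4, a gap of 0.853 of the group's whole range on the log2 scale, where 0.71 is the limit for 5 samples. Chance flags about 1 in 20 such groups. KO4 was also the highest knockout library in the other 2 Ccnd1 probe sets, at 3034 and 492. Without KO4 the difference of 1448698_at was -1.14, against -0.99 with all libraries. KO4 also had the highest Gapdh 3' to 5' log2 ratio (1.32), and a part of RNA quality in this was not tested.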

How the results depend on the processing

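Over 18 alternatives no cyclin or Cdkn1b probe set was called, and over 19 no listed cell cycle gene was. Of 304 recomputed differences, 292 kept their direction, including all of Ccnd1, Ccnd2, Ccne2 and Cdkn1b. The lowest adjusted p was 0.0869, for 1434745_at of Ccnd2 when KO2 and KO3 formed a batch term. The 12 that turned were near 0. Ccnb2 stood at 0.077 with quantile normalization, 0.013 with array weights, 0.13 without knockout libraries 2 and 3 or with them as a batch term, and between -0.15 and 0.033 with single libraries left out. The Ccna2 probe set 1417910_at stood at -0.12 with centring on array medians and between -0.21 and 0.21 with single libraries left out, and the Ccne1 probe set 1441910_x_at between -0.43 and 0.13. Centring on medians shifted all probe sets by -0.12. Over all probe sets 8 were called, against 5 without a filter (more probe sets tested), 4 with the stricter filter, 15 with the replicate block, 5 without knockout libraries 2 and 3, and 0 to 7 with single libraries left out. Over genes 2 were called, against 1, 1, 42 and 1 under the same settings, 7 with the batch term, and 0 to 2 with single libraries left out. The labels do not say whether the replicate numbers pair the samples. Deviations of same-numbered libraries correlated at 0.11 and -0.01. As the deviations of 2 wild type libraries mirror each other, these values cannot decide it. The block leaves 1 residual degree of freedom. Causes were not tested. Counts of separate groups without knockout libraries 2 and 3 were added after seeing the data.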

Other observations

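WT1 was the lowest library for some proliferation genes and the highest for others; all genes of this paragraph were chosen after their values were seen. Mki67, a marker of cycling cells, read 4472 to 5070 in knockout libraries, against 1716 in WT1 and 4570 in WT2. Bub1, a spindle checkpoint kinase gene, read 4873 to 5614 in knockout libraries, against 1533 in WT1 and 6499 in WT2. Ttk, another checkpoint kinase gene, read 2427 to 2748 in knockout libraries, against 1161 in WT1 and 2820 in WT2. In the other direction, the mitotic kinase genes Plk1 and Aurka were highest in WT1. Plk1 read 1840 to 3116 in knockout libraries, against 4276 in WT1 and 1521 in WT2, and Aurka 1925 to 3035 in knockout libraries, against 4332 in WT1 and 2422 in WT2. The members also went both ways. Ccne2 was lowest in WT1 at 253, while the brightest probe sets of Ccnd1, Ccnd2 and Ccne1 were highest there, at 4917, 938 and 6854.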
